A study of Mus musculus with 4 samples.

Results

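Arterial endothelial nuclei are described here as they were found in right ventricles (RVs) of mice with and without right ventricular volume overload (RVVO). A nucleus was taken as endothelial when at least 3 unique molecular identifiers (UMIs, each standing for 1 captured transcript) were summed over Flt1, Ptprb, Pecam1, Cdh5 and Egfl7, when Ryr2, a cardiomyocyte (CM) gene, took under 1% of its UMIs and when Pdgfra and Pdgfrb together had at most 1 UMI. Among these, the arterial nuclei were chosen by measured values, namely at least 2 UMIs summed over Gja5, Gja4, Sox17, Hey1 and Dll4 and 0 UMIs over Npr3, Tmem108, Mmrn1 and Reln. The rule found 1039 nuclei, 378 in sham 1, 316 in sham 2, 165 in RVVO 1 and 180 in RVVO 2, the order of every list of 4 values below. They were part of 14692 endothelial nuclei and of 48428 nuclei kept from 53090 barcodes.

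All mice were WT of strain C57/BL6J and the RVs were collected at P21. The sham group had 2 libraries from mice operated at P7 without the puncture. The RVVO group had 2 libraries from mice in which a fistula between abdominal aorta and inferior vena cava was made at P7. After surgery the study injected mice with cyclosporine A or saline, and the sources used here do not state which of these the sequenced mice received. Whether 1 mouse or several went into a library is not stated either, so the spread between the 2 libraries of a group may be technical. Both sham libraries had Xist and no Y-linked transcript in the arterial nuclei, and both RVVO libraries had the reverse. Wherever RVVO is set against sham below, sex and surgery cannot be told apart.

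Endothelial cells that line arteries take on their identity under VEGF and Notch signalling. Dll4 and Jag1 are Notch ligands, Hey1 is a target gene of the Notch receptors and Sox17 is a transcription factor that acts with this pathway. Gja5 and Gja4 encode connexins 40 and 37, which form gap junctions between arterial endothelial cells. In the heart, the arterial endothelium leads from larger coronary branches through arterioles into a dense capillary bed.

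The genes of the rule contributed unequally. Sox17 was found in 790 of the 1039 nuclei (76.0%), Dll4 in 410 (39.5%), Hey1 in 377 (36.3%), Gja5 in 102 (9.82%) and Gja4 in 64 (6.16%). Sox17 supplied 51.0% of the UMIs on which the choice rested. Most members were close to the threshold, with exactly 2 UMIs in 655 nuclei and 3 or more in 384, up to 11 in 1 nucleus. They were also spread over few genes, since 445 nuclei had UMIs of 1 gene, 493 of 2, 92 of 3 and 9 of 4, and none of all 5. These values describe the choice and test nothing.

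**Figure D1:**
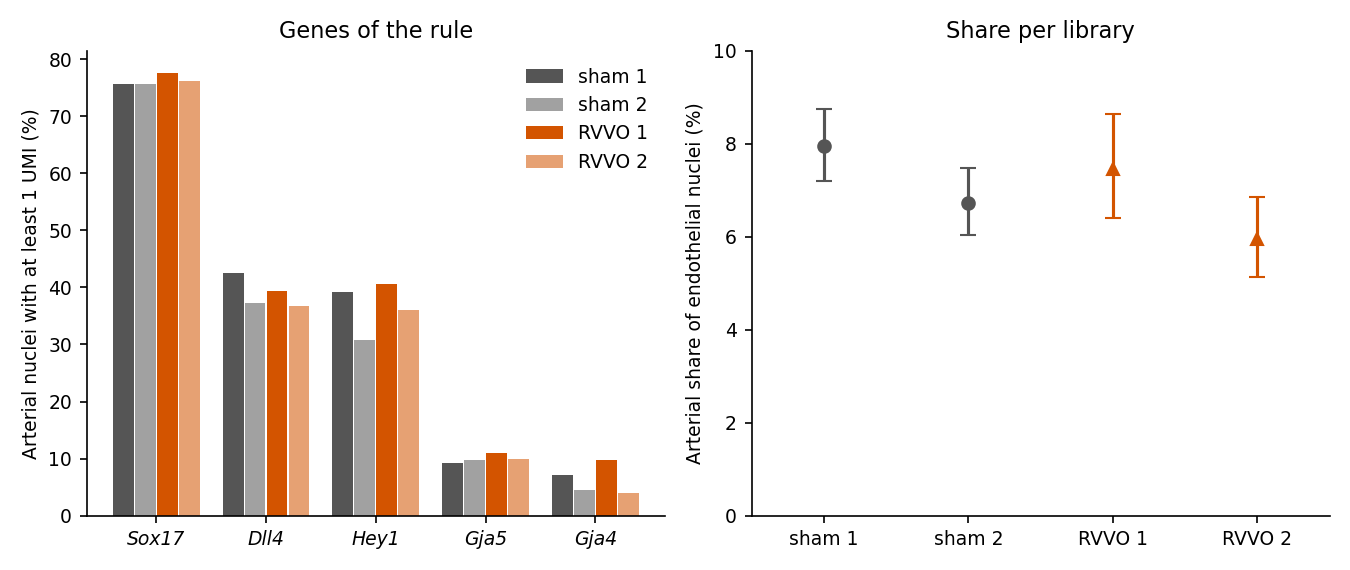
Left, share of the arterial nuclei of each library with at least 1 UMI of each gene of the rule (%); Sox17 was found in most members and the connexin genes Gja5 and Gja4 in few. Right, arterial share of all endothelial nuclei per library (%), with exact 95% binomial intervals as bars; the sham and RVVO points overlap.

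The arterial nuclei had medians of 3477, 2711, 3967 and 3517.5 UMIs. The summed counts of the arterial nuclei were 1592644, 1094908, 799943 and 857633 UMIs. Nuclei without a UMI of the 5 arterial genes, called capillary-type here when they also had under 2 Vwf UMIs and none of Npr3, Tmem108, Mmrn1 and Reln, had medians of 1887, 1721, 2648 and 2515 UMIs. Ryr2 was found in 93.7%, 91.5%, 97.0% and 90.6% of the arterial nuclei, and in 88.9%, 87.8%, 96.5% and 88.0% of the capillary-type nuclei, although it is a CM gene. The share of nuclei with a UMI of a gene was therefore not read as the share expressing it, and levels are given below as CPM, the UMIs of a gene scaled to 1000000 UMIs of the nuclei of that kind in that library. No barcode of an arterial nucleus recurred among the arterial nuclei of another library.

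Just outside the threshold, 2384 endothelial nuclei without UMIs of Npr3, Tmem108, Mmrn1 and Reln had 1 UMI of the 5 genes, and just inside it 655 had 2. Fbln5, which encodes an elastic fibre protein, had 25.1 ± 6.63 CPM (SD, n = 4 libraries) in nuclei with 0 UMIs, 41.1 ± 18.3 with 1, 75.6 ± 35.3 with 2 and 115 ± 34.8 with 3 or more. Cxcl12, a chemokine of arterial endothelium, had 152 ± 28.5, 259.98 ± 36.02, 331 ± 85.2 and 450.4 ± 137 CPM in the same classes. The classes are cut by the genes of the rule and differ in depth (medians of 1897.5, 2425, 3086 and 3980.0 UMIs in sham 1), so these values are a description with no test.

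Within the members, those with a connexin transcript stood apart. There were 157 nuclei with at least 1 UMI of Gja5 or Gja4, which were 59, 44, 31 and 23 of the 4 libraries, and 882 without. Elastin, Eln, the core of the elastic fibres of arteries, had 780.3, 1549, 2255 and 2199 CPM in the nuclei with a connexin UMI and 160.3, 277, 202 and 316 CPM in those without. The lowest library with the connexins lay above the highest without. Bmx, a kinase long used to mark arterial endothelium, had 113, 121, 217 and 133 CPM with and 20.97, 41.98, 16.98 and 14.6 CPM without. Fbln5 had 241, 409.8, 197 and 219 CPM with and 61.4, 91.5, 50.9 and 42.5 CPM without. The Notch ligand Jag1 had 163, 193, 132 and 162 CPM with and 45.7, 41.98, 44.8 and 37.2 CPM without. Their means differed by 7.10-fold for Eln, 6.17-fold for Bmx, 4.33-fold for Fbln5 and 3.83-fold for Jag1. In the whole list of 25 arterial genes not used by the rule, 11 were higher in every library with connexins than in any library without, beside 369 of 11415 genes in all (3.23%), and 1 was lower in this way, beside 3.93% of all genes (Nrp1, a co-receptor of VEGF, with 761, 446, 776 and 609 CPM with and 1002, 1137, 1113 and 922 CPM without). The higher mean was with the connexins for 18 of the 25 and for 48.9% of all genes.

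Capillary genes ran the other way in the same split. All 16 genes of the capillary list had the lower mean in nuclei with a connexin UMI, and 7 of them did not overlap between the libraries, beside 51.1% and 3.93% of all 11415 genes. Car4, a carbonic anhydrase on the capillary surface, had 50.5, 72.3, 65.8 and 19.03 CPM with a connexin UMI and 149.8, 128, 173 and 116 CPM without. Kdr, the main VEGF receptor, had 279.5, 187, 158 and 190.3 CPM with and 472, 398, 499 and 435 CPM without. Gpihbp1, which carries lipoprotein lipase to the capillary lumen, had 334, 229, 204 and 162 CPM with and 488, 352, 378 and 368 CPM without. Some genes of the arterial list did not follow the split. Efnb2, the ephrin ligand of arteries, had means of 252 ± 54.8 and 269.6 ± 59.5 CPM (SD, n = 4 libraries) with and without, and Cxcl12 had 281 ± 69.9 and 407 ± 113 CPM. Smooth muscle markers moved with the split as well. Of these 7 genes 6 had the higher mean with a connexin UMI, and 1, Mylk, did not overlap. They summed to 489, 1157, 322 and 352 CPM with and 279, 204.5, 249 and 276 CPM without. The 6 pericyte markers summed to 2403, 1296, 638 and 761 CPM with and 1276, 786, 770.2 and 756 CPM without, higher with the connexins in both sham libraries and lower in RVVO 1. Myh11, a smooth muscle myosin, had 46.6, 512, 26.3 and 28.6 CPM with and 11.98, 26.9, 10.8 and 9.302 CPM without, and Cnn1 was at 0 in 3 of the 4 libraries with the connexins. Their part in the levels of Eln, Fbln5 and the other arterial genes was not tested. Because Gja5 and Gja4 belong to the rule, these values are a description with no test. The split rested on few reads, such as 13, 12, 10 and 2 UMIs for Car4 in the nuclei with a connexin UMI.

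**Figure D2:**
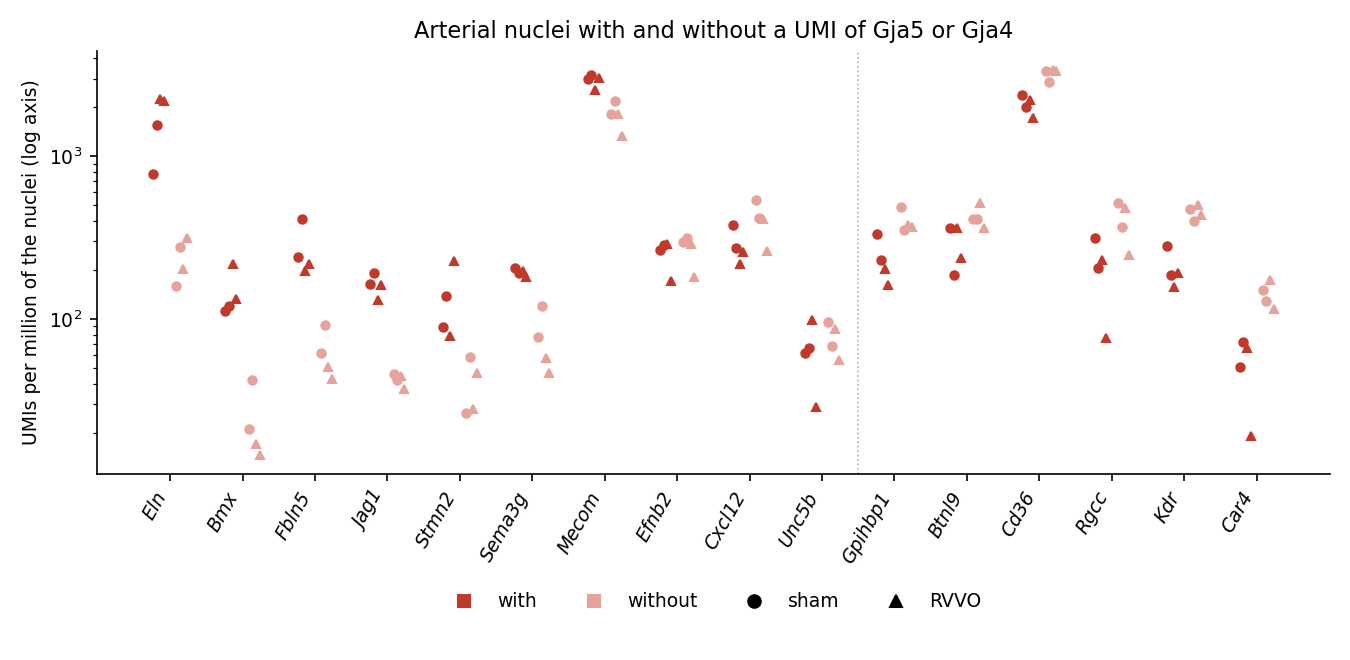
Levels of 10 genes of the arterial list (left of the dotted line) and 6 capillary genes (right) in CPM on a log axis, 1 point per library, in arterial nuclei with (dark) and without (light) a UMI of Gja5 or Gja4; circles are sham and triangles RVVO. Eln, Bmx, Fbln5, Jag1, Stmn2, Sema3g and Mecom were higher with the connexins in all libraries, Kdr and Car4 were lower, and Efnb2 overlapped.

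The arterial nuclei were then compared with other endothelial nuclei of the same libraries. Counts were summed per library and kind of nucleus and tested across the 4 libraries by edgeR's quasi-likelihood test with the library as a block, and p-values were adjusted over all genes tested (Benjamini-Hochberg). The 17 genes of the rule were left out, and also Vwf where it was used to choose the other nuclei. Differences are log2 values from this fit. The nuclei set beside them were 8000 capillary-type nuclei, 1325 endocardial-type nuclei, chosen by at least 2 UMIs of Npr3 and Tmem108, and 268 Vwf-rich nuclei, chosen by at least 2 UMIs of Vwf, all without arterial UMIs.

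Against capillary-type nuclei, 651 of 11415 genes were higher in arterial nuclei (5.7%) and 561 lower (4.91%). Of the 25 arterial genes not used by the rule, 24 were tested, 18 were higher and none was lower. Their median difference was 0.68, beside -0.01 over all genes tested. These genes had no part in the rule, but the list was chosen with earlier results of these data known. In the same comparison 7 of 16 capillary genes were also higher and none was lower. The differences of the arterial list are therefore not a test of the label.

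Bmx showed the largest difference in the arterial list. It had 35.8, 53.9, 55.004 and 29.1 CPM in arterial and 5.85, 10.5, 6.38 and 5.27 CPM in capillary-type nuclei, a difference of 2.62 ± 0.18 (SE; adjusted p = 6.53e-12). Fbln5 had 90.4, 139.7, 78.8 and 64.1 CPM in arterial and 23.7, 33.99, 17.1 and 22.7 CPM in capillary-type nuclei, a difference of 1.95 ± 0.12 (SE; adjusted p = 3.47e-13). Every arterial library lay above every capillary-type library for both genes. Sema3g, a semaphorin of arterial endothelium, had 97.95, 131, 83.8 and 62.96 against 37.6, 37.4, 20.1 and 20.3 CPM, a difference of 1.69 ± 0.12 (SE; adjusted p = 6.54e-12). Stmn2, a microtubule regulator, had 36.4, 70.3, 37.5 and 68.8 against 7.75, 14.7, 22.2 and 17.2 CPM, a difference of 1.90 ± 0.18 (SE; adjusted p = 3.53e-09). Cxcl12 had 510.5, 397, 376 and 260.02 against 180.1, 158, 171 and 113 CPM, a difference of 1.34 ± 0.07 (SE; adjusted p = 2.47e-15). These groups did not overlap either. Efnb2 was higher by a smaller amount, with 290.1, 309.6, 288 and 181 against 178, 179, 169 and 157 CPM and a difference of 0.66 ± 0.08 (SE; adjusted p = 1.33e-07). Mecom, a transcription factor of arterial endothelium, was higher in arterial nuclei by 0.47. Eln, Edn1 (endothelin), Tm4sf1, Unc5b and Sox18 were higher by 0.91, 1.24, 0.88, 0.79 and 0.77.

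**Figure D3:**
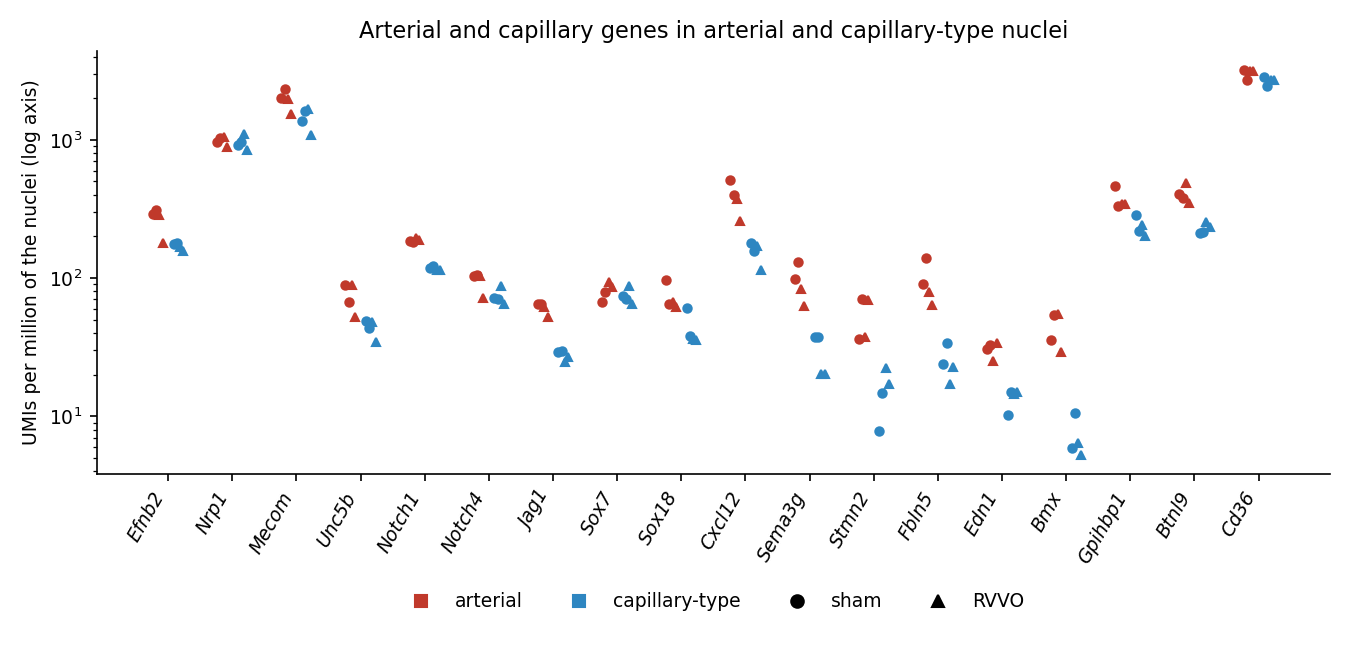
Levels of 15 genes of the arterial list and 3 capillary genes (Gpihbp1, Btnl9, Cd36) in CPM on a log axis, in arterial (red) and capillary-type nuclei (blue), 1 point per library; circles are sham and triangles RVVO. Bmx, Fbln5, Stmn2, Sema3g, Cxcl12 and Jag1 were separate between the 2 kinds of nuclei, Nrp1 and Sox7 were not, and Gpihbp1 and Btnl9 were also higher in arterial nuclei.

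In the Notch pathway, 5 of the 21 genes tested were higher and 2 lower. The receptor Notch1 had 186, 183, 194 and 190.1 CPM in arterial and 118, 123, 115 and 114 CPM in capillary-type nuclei, a difference of 0.70 ± 0.07 (SE; adjusted p = 3.26e-08). Jag1 had 64.7, 64.8, 61.3 and 52.5 against 28.9, 29.8, 24.5 and 26.8 CPM, a difference of 1.16 ± 0.13 (SE; adjusted p = 4.92e-08). The target Nrarp, a feedback inhibitor of the pathway, was higher by 0.79 and Notch4 by 0.44. Rbpj, the DNA-binding partner of the Notch receptors, was lower, with 109, 129.7, 254 and 206 against 204, 203, 266 and 373 CPM and a difference of -0.60 ± 0.09 (SE; adjusted p = 1.69e-05). It was lower in each of the 4 libraries, and Notch2 was lower by 0.56 on the log2 scale. The calls of 3 of these genes were lost when 1 library was left out. Nrarp missed the threshold without sham 1, sham 2 or RVVO 2 (differences of 0.79, 0.78 and 0.67), Notch4 without sham 2 (0.37) and Notch2 without sham 1 (-0.45). Over all alternatives Nrarp lost its call in 10 of 14, Notch4 in 8 of 17 and Notch2 in 8 of 16. Rbpj lost it in 3 of 17, with values from -0.93 to -0.047, and Notch1 in 1 of 17.

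Of the genes of blood flow and vessel tone, 9 of 18 tested were higher and 2 lower. Klf2, a transcription factor that responds to shear stress, had 345, 349.8, 250.02 and 261 CPM in arterial and 232, 219.8, 166 and 181 CPM in capillary-type nuclei, a difference of 0.62 ± 0.06 (SE; adjusted p = 1.63e-08). S1pr1, a receptor for sphingosine phosphate, was higher by 0.54, Ace by 0.92, the calcium channel Trpv4 by 0.81 and Klf4 by 0.36. The prostaglandin enzymes Ptgis and Ptgs1 were lower, with differences of -0.67 and -0.80. Trpv4, Klf4, Ptgis and Ptgs1 missed the threshold without sham 2 (0.71, 0.24, -0.52 and -0.56), and the last 2 also without sham 1 (-0.63 and -0.74). Over all alternatives Ptgs1 lost its call in 8 of 14, Ptgis in 7 of 16, Klf4 in 5 of 17 and Trpv4 in 3 of 16. Klf2 lost it in 3 of 17, with a lowest difference of 0.12, S1pr1 in 2 of 17 and Ace in 2 of 16.

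Of 21 genes of elastic fibres and basement membrane tested, 11 were higher and none was lower. Sparc had 1118, 695, 763 and 798 CPM in arterial and 626, 432, 473 and 485 CPM in capillary-type nuclei, a difference of 0.76 ± 0.05 (SE; adjusted p = 1.33e-12). Fn1 (fibronectin) was higher by 0.91, the laminin chain Lama5 by 0.74 and the collagen chain Col4a1 by 0.42. When nuclei with at least 2 UMIs of macrophage, of smooth muscle and pericyte or of erythroid markers were left out, which leaves 52, 46, 1 and 24 arterial nuclei, Sparc differed by -0.036 and Col4a1 by -0.0083, and neither passed the test. In BMP and TGF-beta signalling 7 of 18 were higher and 3 lower. Smad6, an inhibitor of BMP signals, had 438, 454, 488 and 511 against 223, 220.3, 206 and 265 CPM, a difference of 1.07 ± 0.06 (SE; adjusted p = 5.41e-14), and the receptor Acvrl1 and its co-receptor Eng were higher by 0.63 and 0.40. The secreted Bmper was lower by 1.09 on the log2 scale. Its call was lost without RVVO 2 (-0.79) and in 7 of 15 alternatives in all. Of 15 ephrin and guidance genes 6 were higher, Efnb1 by 0.76, and 2 lower, Sema3a by 1.26 on the log2 scale. Of 6 venous genes tested 1, Flt4, was higher and 1, Nr2f2, was lower.

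Among the genes outside these lists, St8sia6, an enzyme that adds sialic acid, had 85.4, 95.9, 109 and 87.5 CPM in arterial and 23.7, 29.6, 26.2 and 30.2 CPM in capillary-type nuclei, a difference of 1.80 ± 0.12 (SE; adjusted p = 7.36e-13). The laminin chain Lama3, the protease Pcsk5, the collagen chain Col18a1 and Nebl were higher by 1.51, 1.40, 1.31 and 1.24. Rgs5, a regulator of G proteins that is also a pericyte marker, was higher by 1.10, with 1152, 630.2, 560.04 and 525 against 584, 285, 254 and 247 CPM. It was the only 1 of 6 pericyte markers called. The summed CPM of these 6 markers was 1459, 863, 745 and 757 in arterial and 834, 497, 452 and 494 in capillary-type nuclei, with Rgs5 the most abundant and none at 0. When nuclei with at least 2 UMIs of macrophage or of smooth muscle and pericyte markers were left out, an alternative chosen after seeing the data, Rgs5 had -0.54 (edgeR, adjusted p = 0.353). Rgs5 is itself among the markers by which these nuclei were left out, so this value does not bear on it, and the part of pericyte transcripts in the difference was not tested.

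Genes of capillaries were also found at high levels in the arterial nuclei. Of 16 capillary genes, 7 were higher in arterial nuclei (Btnl9, Fabp4, Gpihbp1, Fabp5, Kdr, Cd300lg and Cd36) and none was lower. In the fit without nuclei with macrophage, mural or erythroid markers, Cd36 differed by -0.060 and did not pass. Besides this fit, Cd36 lost its call in 2 of 17 alternatives. Cd300lg lost it in 5 of 17, with a lowest difference of 0.050, and Fabp4, Gpihbp1 and Kdr in 3 of 17 each. Fabp5 lost it in 2 of 16 and Btnl9 in 1 of 17. Fabp4, a fatty acid carrier, had 2873, 2365, 1678 and 2761 CPM in arterial and 1852, 1390.4, 1251 and 1597 CPM in capillary-type nuclei, a difference of 0.68 ± 0.05 (SE; adjusted p = 1.69e-11). Gpihbp1 had 463, 333, 345 and 343 against 285, 220.3, 243 and 203 CPM, a difference of 0.67 ± 0.06 (SE; adjusted p = 1.59e-09). The 882 arterial nuclei without Gja5 and Gja4 held Gpihbp1 at 488, 352, 378 and 368 CPM and Bmx at 20.97, 41.98, 16.98 and 14.6 CPM, both above the capillary-type levels in every library. Arterial is therefore used here for what the rule chose, and whether it holds arterial and capillary nuclei side by side was not tested. Without the library as a block 38 genes were higher and 1 lower, and with the rule applied to nuclei thinned to 2000 UMIs 402 were higher and 362 lower.

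The genes lower in arterial nuclei included transcripts of other cells. Of the CM markers 8 of 10 were lower, of the macrophage markers 6 of 8, of the fibroblast markers 5 of 7 tested and of the erythroid markers 3 of 5. The summed CPM of the 10 CM markers was 22497, 16318, 21600.3 and 21023 in arterial and 30354, 19771, 26209 and 23453 in capillary-type nuclei, and none of them was at 0. Taken over all libraries, the most abundant was Ttn in the arterial and Myh6 in the capillary-type nuclei. In the arterial nuclei of sham 1, Myh6 was above Ttn (7520 and 7138 CPM). The 8 macrophage markers, none at 0 and led by F13a1, summed to 185, 223, 688 and 494 CPM in arterial and 397, 377, 752 and 896 CPM in capillary-type nuclei. Fibroblast markers, led by Gsn, summed to 868, 992, 1195 and 1441 against 1075, 1343, 1488 and 1827 CPM, and erythroid markers, led by Hbb-bs, to 797, 1063, 2928 and 886 against 931, 1298, 3633 and 991 CPM, again with none at 0. The immune genes Arhgap15, Dock2, Ptprc and Fyb, named by the rule, had differences of -1.22, -1.01, -0.83 and -0.91. Kirrel3 had the lowest value of this set, at -1.39. Capillary-type nuclei were the shallower ones, a difference that a choice by UMIs favours by construction, and the part of free RNA in these differences was not tested.

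Against endocardial-type nuclei the differences were wider, with 1681 of 9501 genes higher in arterial nuclei (17.7%) and 1539 lower (16.2%). Nrg1, the neuregulin of the endocardium, had 4.395, 1.83, 5.0004 and 1.17 CPM in arterial and 1104, 1425, 791 and 745 CPM in endocardial-type nuclei, a difference of -8.27 ± 0.18 (SE; adjusted p = 8.61e-21). Cdh11, a cadherin, had 5.65, 17.4, 27.5 and 19.8 against 1212, 1062, 1303 and 986 CPM, a difference of -6.14 ± 0.17 (SE; adjusted p = 7.19e-19). All 5 tested endocardial genes outside the rule were lower in arterial nuclei. Vwf, the clotting factor carrier, had 32.7, 64.8, 50.004 and 64.1 against 1465, 1642, 1846 and 1505 CPM. Plvap, of fenestrated and venous endothelium, was lower by 4.65 on the log2 scale (-5.66 without RVVO 2), and the venous regulator Nr2f2 by 1.47. Of 8 venous genes tested 5 were lower, but 2, Nrp2 and Flt4, were higher.

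In the other direction, 14 of the 15 capillary genes tested were higher in arterial than in endocardial-type nuclei. Kdr had 441, 366, 434 and 405 CPM in arterial and 101, 81.98, 74.5 and 98.3 CPM in endocardial-type nuclei, a difference of 2.23 ± 0.10 (SE; adjusted p = 6.21e-15). Btnl9 differed by 3.12, Pparg, a regulator of fatty acid handling, by 2.58, and Fabp5, the exception, was lower by 0.30 on the log2 scale, a call that was lost without sham 2, RVVO 1 or RVVO 2 (-0.20, -0.27 and -0.32). The arterial list was divided, 15 of 23 higher and 6 lower. Jag2, Unc5b, Fbln5 and Cxcl12 were higher by 2.58, 2.53, 2.41 and 2.92. Bmx had 35.8, 53.9, 55.004 and 29.1 CPM in arterial and 160.4, 274, 187 and 151 CPM in endocardial-type nuclei, so this marker was lower in arterial nuclei by 2.13 on the log2 scale. Mgp, Eln, Clu, Edn1 and Tm4sf1 were also lower, with differences of -1.56, -0.83, -0.63, -0.62 and -0.38. Edn1 missed the threshold without RVVO 1 (-0.50), Clu without RVVO 2 (-0.50) and Tm4sf1 without sham 2 or RVVO 2 (-0.35 and -0.27). Klf2 and Klf4 were higher by 1.09 and 1.13, while Nos3, the endothelial nitric oxide synthase, and Ece1 were lower by 1.06 and 1.75 on the log2 scale. Markers of other cells moved with this comparison too. All 5 pericyte markers tested were higher, as were 4 of 4 erythroid, 5 of 10 CM and 2 of 4 smooth muscle markers, while 2 of 7 fibroblast and 3 of 4 epicardial markers were lower and Wt1 was higher. The pericyte markers, led by Rgs5, summed to 1459, 863, 745 and 757 CPM in arterial and 336, 339, 184 and 238 CPM in endocardial-type nuclei. The erythroid markers, led by Hbb-bs, summed to 797, 1063, 2928 and 886 against 515, 707, 1994 and 574 CPM, and the CM markers to 22497, 16318, 21600.3 and 21023 against 21502, 12626, 18335 and 17694 CPM, with none at 0. Their part in the differences was not tested.

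Against Vwf-rich nuclei, 445 of 7302 genes were higher in arterial nuclei (6.09%) and 391 lower (5.35%). The 268 Vwf-rich nuclei held far fewer UMIs, 156597, 227342, 248032 and 230796 in all. Efnb2 had 290.1, 309.6, 288 and 181 CPM in arterial and 76.6, 70.4, 80.6 and 86.7 CPM in Vwf-rich nuclei, a difference of 1.75 ± 0.18 (SE; adjusted p = 6.29e-08). Nr2f2, which sets venous identity, had 40.8, 46.6, 57.5 and 43.1 against 140.5, 180.3, 226 and 204 CPM, a difference of -1.98 ± 0.18 (SE; adjusted p = 7.5e-09). These 2 genes stood on opposite sides, and their groups did not overlap. Cxcl12 was higher by 2.46, Sox18 by 2.02 and St8sia6 by 4.32 (5.83 without RVVO 2). Ptgs1 had 4.395, 4.57, 21.3 and 9.33 against 147, 87.97, 214 and 104 CPM, a difference of -3.90 ± 0.30 (SE; adjusted p = 2.9e-10), and Plekha7, a junction protein, differed by -4.05. Eln was lower in arterial nuclei here too, with 261, 469, 593 and 547 against 1852, 2191, 1939 and 2067 CPM. Of the arterial list 10 of 23 were higher and 3 lower, and of the capillary list 13 of 15 were higher and none lower. Of 6 venous genes tested 3 were lower and 1, Flt4, was higher. Among markers of other cells, 2 of 3 pericyte markers tested (Rgs5 and Notch3) and Wt1 were higher and F13a1 was lower.

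**Figure D4:**
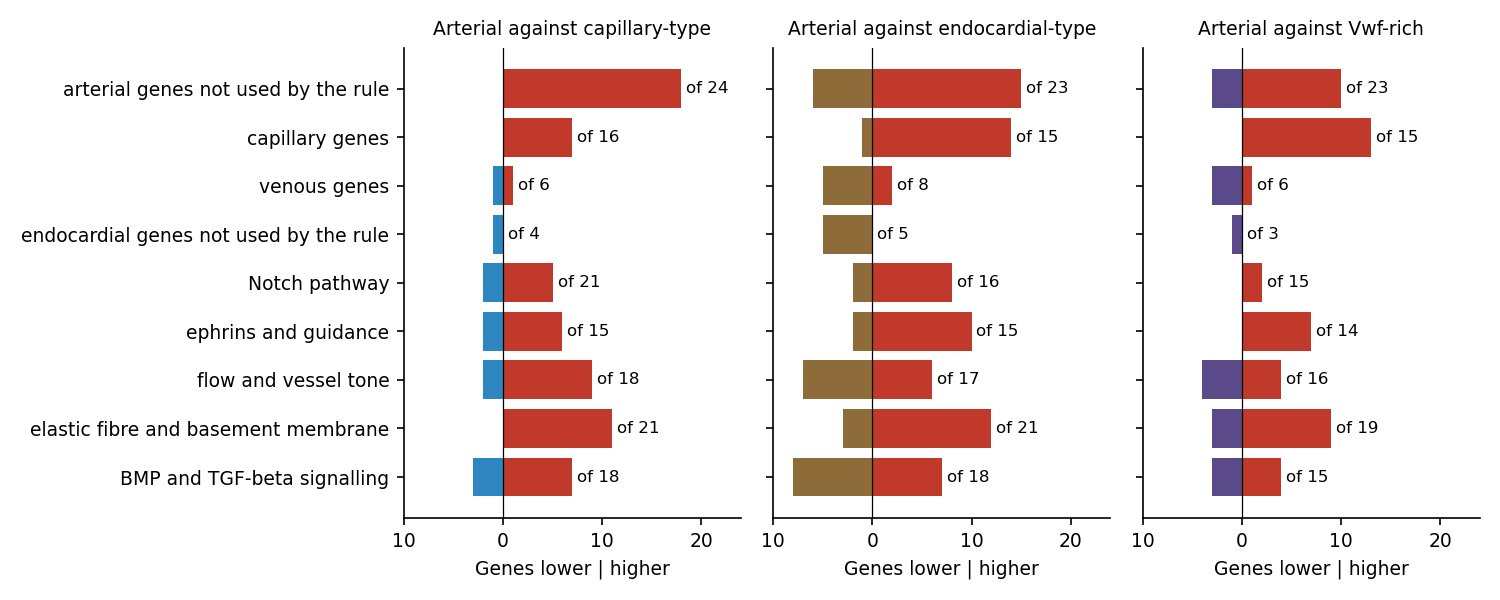
Number of genes of 9 lists called higher (right, red) or lower (left, other colours) in arterial nuclei than in capillary-type, endocardial-type and Vwf-rich nuclei, with the number tested beside each bar. Arterial genes were higher in 18 of 24 tests against capillary-type nuclei, and capillary genes were higher in 14 of 15 against endocardial-type nuclei.

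The share of arterial nuclei among endothelial nuclei was compared between the groups. It was 7.94%, 6.73%, 7.46% and 5.95%, with exact 95% binomial intervals of 7.19 to 8.75, 6.03 to 7.49, 6.399 to 8.63 and 5.13 to 6.85%, which cover counting error only. The means were 7.34% ± 0.856 in the sham and 6.70% ± 1.07 in the RVVO group (SD, n = 2 each). The groups thus differed by -0.635 percentage points, a smaller step than that between the 2 libraries of either group (exact two-sided permutation test, p = 0.6667, where the smallest p that 2 against 2 allows is 0.33). This difference was -0.029 without sham 1, -1.24 without sham 2, -1.39 without RVVO 1 and 0.122 without RVVO 2. The RVVO libraries were deeper, so the rule was repeated after each nucleus was thinned to 2000 UMIs, leaving out shallower nuclei. The share was then 5.39% ± 0.254 in the sham and 3.74% ± 0.651 in the RVVO group (SD, n = 2 each; exact permutation test, p = 0.33). In nuclei with at least 2000 UMIs it was 11.98%, 10.1%, 8.48% and 6.39%, a difference of -3.61 percentage points, and of all nuclei kept it was 2.91%, 2.17%, 2.001% and 1.42%, a difference of -0.828 (exact permutation tests, p = 0.33 each). In these 3 forms both sham libraries lay above both RVVO libraries. They overlapped as in the first form without doublet-scored nuclei (a difference of -0.32), with the stricter quality filter (-0.576), with at least 2 arterial genes (-0.119) and with at least 3 arterial UMIs (-0.0081), and also without nuclei with macrophage or mural markers (-0.174). No difference in share could pass the test in this design. The 20 genes of dividing cells summed to 27.6, 40.2, 128 and 66.5 CPM in arterial nuclei. They summed to 72.0, 98.9, 52.7 and 152 CPM in capillary-type and 38.3, 106, 56.4 and 56.3 CPM in Vwf-rich nuclei. In endocardial-type nuclei they had 264, 129, 129 and 65.9 CPM. None of the 20 passed the filter on low counts for RVVO against sham in arterial nuclei. Against capillary-type nuclei 5 were tested and 1, Cenpf, was lower, and against endocardial-type nuclei 2 were tested and 1, Diaph3, was lower.

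The question of the design was what volume overload changed, and in arterial nuclei few genes passed the test. Of 9209 genes, 26 were higher (0.282%) and 52 lower (0.565%) with RVVO than in the sham group by edgeR's quasi-likelihood test. Among the 78, 7 lie on the sex chromosomes. The groups were without overlap in all 78, but also in 3372 of all 9209 genes. None of the 23 arterial, 15 capillary, 16 Notch, 7 VEGF, 16 flow and tone, 21 elastic fibre and basement membrane and 16 BMP genes tested passed it. Signs of RNA quality moved with the group, since mitochondrial transcripts had medians of 2.31%, 1.83%, 1.35% and 0.961% of UMIs in the arterial nuclei, and the lowest count of a member was 975, 610.0, 1008 and 1582 UMIs. Their part in the calls was not tested. The values are shares of summed UMIs, in which fewer nuclei with a transcript and less of it per nucleus cannot be told apart. Nuclei with the highest doublet scores numbered 72, 50, 10 and 21, and without them 56 genes were higher and 55 lower.

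The sex genes came first. Xist, which silences an X chromosome in female cells (chrX:103460366-103483254 in GRCm38), had 1983, 1303, 0 and 0 UMIs in arterial nuclei. With a floor of 3 counts per library it was at least 336-fold lower with RVVO. The Y-linked Uty (chrY:1096861-1245759) had 0, 0, 185 and 211 UMIs and was at least 103-fold higher. Ddx3y, Eif2s3y and Kdm5d were at least 50.2-fold, 41.4-fold and 18.7-fold higher. Tsix, which is antisense to Xist and overlaps it, cannot be told apart from it without strand. With the genes of chromosomes X and Y left out of the fit, 15 genes were higher and 42 lower.

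Herc6, Bst2, Oasl2, Isg15, Ifit1 and Rsad2 were among the 52 lower genes. Each is known as a gene that interferon induces, they were chosen after their values were seen, and no list of such genes was tested. Herc6, a ubiquitin ligase (chr6:57581000-57664632 in GRCm38), had 742, 593, 176 and 215 CPM, a difference of -1.83 ± 0.21 (SE; adjusted p = 0.00162) by edgeR. Bst2, which tethers virus particles to the cell (chr8:71534255-71537456), had 316, 233, 73.8 and 83.95 CPM, a difference of -1.86 ± 0.22 (SE; adjusted p = 0.00204). Oasl2 had 181, 174, 52.5 and 71.1 CPM, a difference of -1.57 ± 0.21 (SE; adjusted p = 0.00605). In each, both sham libraries were above both RVVO libraries. The ubiquitin-like Isg15 had 64.7, 50.2, 12.5 and 19.8 CPM, a difference of -1.88 ± 0.32 (SE; adjusted p = 0.0206). Ifit1, which binds foreign RNA, had 79.1, 65.8, 13.8 and 26.8 CPM, a difference of -1.88 ± 0.31 (SE; adjusted p = 0.0206). Rsad2, an antiviral enzyme, had 342, 182, 103 and 103 CPM, a difference of -1.42 ± 0.28 (SE; adjusted p = 0.0374). Sham 1 had the highest level of all 6 genes, and without it Rsad2 differed by -0.87. Over all alternatives Rsad2 lost its call in 7 of 18, Isg15 in 6 of 17 and Oasl2 in 4 of 18. Bst2 lost it in 3 of 18, Ifit1 in 3 of 16 and Herc6 in 1 of 18.

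Irf7, a transcription factor of the interferon response, had 74.7, 38.4, 11.3 and 8.16 CPM, a difference of -2.62 ± 0.43 (SE; adjusted p = 0.0206) by edgeR, and -2.02 without sham 1. Ifit3 and Ifi44 differed by -2.66 (-3.27 without RVVO 2) and -1.89. Stat2, which carries the interferon signal to the nucleus, had 289, 269, 111 and 156 CPM and fell by 1.11 on the log2 scale. Its call was lost without RVVO 1 (-0.92) and in 7 of 18 alternatives in all. Other genes among the calls were Tap2, which carries peptides to MHC class I, at -1.23, Tapbp at -1.08 and Nlrc5, their regulator, at -1.59. The calls of these 3 genes were lost in 6 of 17, 6 of 18 and 2 of 17 alternatives. Cd274, which encodes PD-L1, had 258, 174, 43.8 and 89.8 CPM and differed by -1.75 (-2.34 without RVVO 2).

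Hspa1a, an inducible chaperone, had 37.05, 131, 3.75 and 5.83 CPM, a difference of -4.09 ± 0.68 (SE; adjusted p = 0.0206) by edgeR. Hsph1, its co-chaperone, had 91.04, 209, 37.5 and 29.1 CPM, a difference of -2.20 ± 0.37 (SE; adjusted p = 0.0206). Without sham 2 the difference was -2.98 for Hspa1a and -1.52 for Hsph1, and without sham 1 it was -4.77 for Hspa1a. Hspa1a has a near-identical copy, Hspa1b, so its count is uncertain. Here sham 2 was the highest, unlike for Herc6 and Bst2, and both sham libraries lay above both RVVO libraries. Of the other genes named by rule, Apol10b fell by 2.94, Pydc4 by 2.65 and Frmd3 by 3.41 on the log2 scale, the last with 45, 25, 4 and 0 UMIs. Without sham 1 Pydc4 missed the threshold (-1.63) and Apol10b differed by -2.35. Frmd3 differed by -2.37 without RVVO 2 and by -7.96 without RVVO 1, which leaves an RVVO library at 0.

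After these values were seen, the promoters of the lower genes were read for the letters GAAANNGAAA on either strand, a form of the interferon-stimulated response element. The 250 bases before each RefSeq start (build GRCm38.p6) were available for 42 of the 52 lower genes, and 16 of these held it (38.1%). It was found in 0 of 23 higher genes, in 3.19% of the 7044 tested genes with a promoter and in 3.46% of all 27025 genes of the table. The 4 fallen genes of lowest p with a match are shown with at most 80 bases each on the strand of the gene and the first match in capitals. It begins 130, 53, 104 and 36 bases before the start of Bst2, Ddx60, Ifit1 and Mndal.

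Bst2, chr8:71537558-71537637, strand -: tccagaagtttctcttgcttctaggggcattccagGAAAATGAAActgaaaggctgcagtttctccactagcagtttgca
Ddx60, chr8:61927999-61928078, strand +: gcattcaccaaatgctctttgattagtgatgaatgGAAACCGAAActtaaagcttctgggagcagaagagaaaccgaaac
Ifit1, chr19:34640750-34640829, strand +: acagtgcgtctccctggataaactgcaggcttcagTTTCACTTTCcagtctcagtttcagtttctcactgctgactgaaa
Mndal, chr1:173880188-173880258, strand -: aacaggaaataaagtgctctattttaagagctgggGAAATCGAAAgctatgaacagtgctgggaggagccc

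In Ifit1 the match is on the opposite strand and reads as the reverse complement. Bst2, Ddx60 and Ifit1 held 2 matches each and Mndal 1. The helicase Ddx60 had 262, 191, 90.01 and 97.9 CPM and fell by 1.33 on the log2 scale, and Mndal, of a family of DNA sensors, had 591, 343, 180.01 and 161 CPM and fell by 1.52. A match is a description of these letters and not proof of a binding site.

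Among the 26 higher genes, 5 were on the sex chromosomes and 3 were macrophage markers. Cd163, a scavenger receptor of macrophages, had 8.79, 10.96, 46.3 and 41.98 CPM, a difference of 2.11 ± 0.34 (SE; adjusted p = 0.0206) by edgeR. Mrc1, the mannose receptor, had 36.4, 51.1, 158 and 106 CPM and differed by 1.56, and F13a1 had 79.7, 70.3, 354 and 169 CPM and differed by 1.74. Without RVVO 1, F13a1 differed by 1.08. The 8 macrophage markers summed to 185, 223, 688 and 494 CPM in arterial nuclei, so they moved with the group, and their part in the other higher genes was not tested. The leukocyte genes Dock2 and Fgd2 were also higher, by 1.56 and 2.04. The call of Dock2 was lost without RVVO 2 (1.32), and that of Fgd2 without sham 1, RVVO 1 or RVVO 2 (1.76, 1.995 and 2.08) and in 7 of 12 alternatives in all. Nuclei with at least 2 UMIs of macrophage markers, or of smooth muscle and pericyte markers, were left out in a further fit, chosen after seeing the data. It called 3 genes higher, Uty, Ddx3y and Eif2s3y, and 5 lower, among them Xist, Tsix, Herc6 and Bst2, the last 2 with differences of -2.03 and -2.43. This fit held fewer nuclei and reads.

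The other higher genes were few and of mixed roles. Snx17, which sorts receptors in endosomes (chr5:31193227-31199143 in GRCm38), had 25.1, 11.9, 87.5 and 118 CPM, a difference of 2.35 ± 0.31 (SE; adjusted p = 0.00605) by edgeR, and 3.05 without sham 1. Slc15a2, a peptide transporter, had 9.42, 38.4, 106 and 85.1 CPM, a difference of 2.05 ± 0.43 (SE; adjusted p = 0.0479). The value of Slc15a2 was 1.27 without sham 1 and 3.26 without sham 2, and its call was lost in 8 of 17 alternatives. Epsti1 had 6.28, 17.4, 65.005 and 40.8 CPM, a difference of 2.19 ± 0.43 (SE; adjusted p = 0.0379), and 1.55 without sham 1 and 2.98 without sham 2. Epsti1 is itself known as a gene induced by interferon, and its direction was opposite to that of Herc6 and Bst2. N4bp2l1 rose by 2.84, a call that was lost without RVVO 1 (1.94), and Adra1a, an adrenergic receptor, by 1.90.

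**Figure D5:**
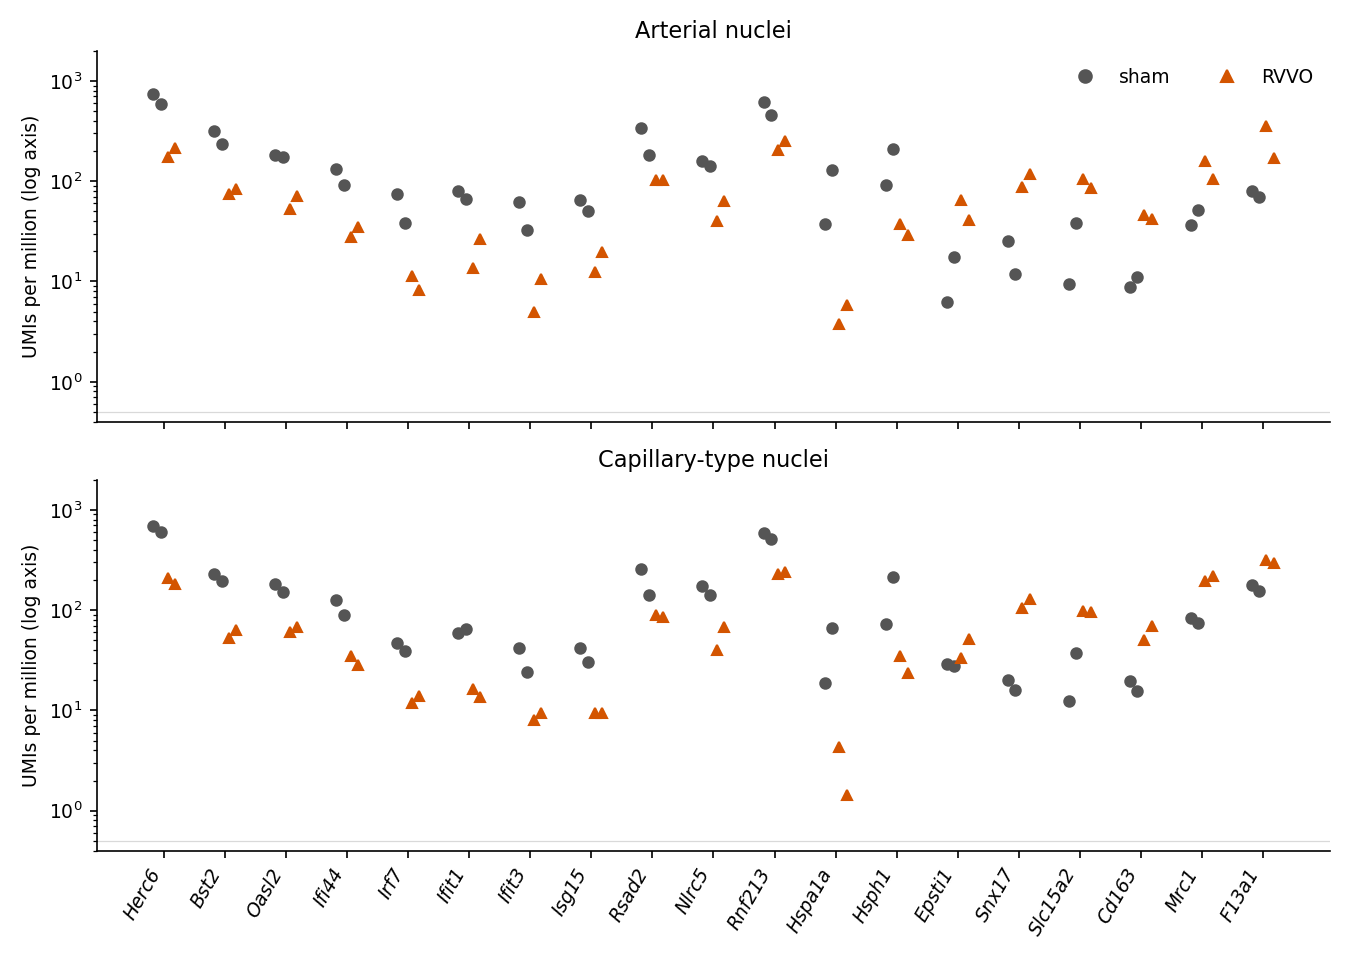
Levels of 19 genes called between RVVO and sham in arterial nuclei (upper panel) and the same genes in capillary-type nuclei (lower panel), in CPM on a log axis, 1 point per library; circles are sham and triangles RVVO. From Herc6 to Hsph1 both sham libraries lay above both RVVO libraries in both panels, and from Epsti1 to F13a1 below them.

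The changes in arterial nuclei were set beside those in capillary-type nuclei of the same libraries. In capillary-type nuclei 12 genes were higher and 18 lower of 13294 tested. Of the 52 genes lower in arterial nuclei, all were tested there and 16 were called. Their median difference was -1.49 in arterial and -1.42 in capillary-type nuclei. Herc6 had 695, 595, 208 and 181 CPM in capillary-type nuclei and Bst2 231, 197, 52.7 and 63.9 CPM, close to the arterial levels. Of the 26 higher genes 8 were called there, with median differences of 1.95 in arterial and 0.995 in capillary-type nuclei. Whether the changes differed between the 2 kinds of nuclei was tested as an interaction. None of 12108 genes passed (0.0%) by edgeR, and none by DESeq2. At an unadjusted p under 0.05, edgeR gave 287 genes with the higher change in arterial nuclei and 239 with the lower, and DESeq2 30 and 8. The edgeR interaction called 7 genes with the higher change and 5 with the lower without a filter on low counts. It called 6 and 2 without doublet-scored nuclei. The rule after thinning gave 1 and 0, and each fit without nuclei with markers of other cells 0 and 2. In the main fit no change with RVVO was shown to be particular to arterial nuclei.

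The genes of flow, Notch and VEGF were examined as well, since the fistula adds to the blood that the RV receives. Klf2 had 345, 349.8, 250.02 and 261 CPM in arterial nuclei, a difference of -0.50 ± 0.18 (SE; adjusted p = 0.408) by edgeR. Nos3 had 109, 202, 128 and 132 CPM, a difference of -0.30 ± 0.26 (SE; adjusted p = 0.911). Cav1, of the caveolae, had 783, 721, 674 and 616 CPM, a difference of -0.28 ± 0.19 (SE; adjusted p = 0.837). None of these passed the test. Rbpj was the nearest in these lists, with 109, 129.7, 254 and 206 CPM and a difference of 0.90 ± 0.20 (SE; adjusted p = 0.062). It passed the test in 5 of 17 alternatives, which were no filter on low counts (0.86), no doublet-scored nuclei (1.44), the replicate block (0.898) and the fits without sham 2 or RVVO 2 (1.01 and 1.07). Notch1 had 186, 183, 194 and 190.1 CPM, a difference of 0.00 ± 0.18 (SE; adjusted p = 0.999).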

How the data were processed

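Nuclei of 4 libraries (10x 3′ v3) were analysed. The matrices deposited by the authors hold raw UMI counts (whole numbers, 1 per gene and barcode, not normalized), written by Cell Ranger 5.0.0 per the file headers, while the submitters' processing notes name Cell Ranger 3.0.1, STAR and Seurat 3.0.2 with GRCm38. How introns and strand were treated is not given in these sources. Nuclei were kept from 200 detected genes on if mitochondrial transcripts made up less than 10% of UMIs (12982, 14564, 8247 and 12635), and doublets were not removed from the main result. The library was the replicate. Kinds of nuclei were compared with the library as a block, since each library held all kinds. Summed counts were tested with edgeR 4.0.16 in R 4.3.3 (TMM, filterByExpr, quasi-likelihood, Benjamini-Hochberg adjusted p under 0.05), with DESeq2 1.42.0 as an alternative, the SE being the log2 difference over the square root of F, and the fits were tested on simulated data. Shares were compared in Python 3.11.15 with scipy 1.17.1. Positions came from GENCODE for 27645 of 27998 gene identifiers. The sham libraries differed by a chi-square per degree of freedom of 3.75 and the RVVO libraries by 3.26, so none was a duplicate.

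The members and gene lists were chosen with earlier results of these data known. Named genes were list genes called, up to 15 highest and 10 lowest of the called genes against other nuclei (largest fold, same direction in all 4 libraries, mean of at least 50 CPM, no Gm, Rik, ribosomal or mitochondrial genes), and for RVVO up to 10 called each way without overlap, the sex genes and the flow, Notch and VEGF genes above 50 CPM. Other genes named were chosen after their values were seen. Alternatives were DESeq2, library sizes without TMM, no filter on low counts, thinning, deep nuclei only, a stricter quality filter, nuclei with doublet scores or other markers left out, stricter limits of the rule, sex chromosomes left out, the replicate block and leaving out each library.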

Additional observations from a re-analysis of the deposited data

How the results depend on the processing

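The counts of genes between RVVO and sham depended on the processing (26 higher and 52 lower as reported). They were 13 higher by DESeq2, 113 and 147 without a filter on low counts, 7 and 6 after thinning to 1000 UMIs, 4 and 13 with the rule after thinning to 2000 UMIs, 6 and 13 with at least 3 arterial UMIs, 10 and 18 with at least 2 arterial genes, 10 and 31 with the stricter quality filter, and 56 higher without doublet-scored nuclei. With sex chromosomes left out 15 were higher. Leaving out nuclei with markers of macrophage, mural or erythroid cells gave 0 and 1 and left 1 arterial nucleus in RVVO 1, so macrophage and mural markers alone were used in an alternative chosen after seeing the data, with 3 and 5. Leaving out 1 library gave 54 to 88 higher and 77 to 127 lower, the lone sample being assumed to vary like the other group.

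Replicate numbers of sham and RVVO did not deviate together (r = -0.0334 across genes), and with the replicate block 58 were higher and 85 lower. Against capillary-type nuclei (651 and 561), DESeq2 gave 365 and 220 and thinning to 1000 UMIs 244 and 200. The rule after thinning gave 402 and 362. Leaving out nuclei with macrophage, mural or erythroid markers gave 24 and 6, and with macrophage or mural markers 177 and 76. At least 3 arterial UMIs gave 325 lower and at least 2 arterial genes 355 lower. No library block gave 38 and 1, and leaving out 1 library 409 to 603 and 265 to 534. Against endocardial-type nuclei (1681 and 1539) the same first 5 settings gave 1090 and 956, 862 and 751, 1004 and 865, 274 and 279, and 856 and 764, and leaving out 1 library 1350 to 1508 and 1259 to 1435. Against Vwf-rich nuclei (445 and 391) they gave 232 and 227, 193 and 166, 287 and 239, 13 and 17, and 171 and 169. There, no library block gave 270 and 243, and leaving out 1 library 319 to 438 and 289 to 372. The interaction (0) gave 12 genes without a filter on low counts, 1 with the rule after thinning, 8 without doublet-scored nuclei and 2 in each fit without nuclei with markers of other cells. The cause of these differences was not tested.

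The difference in share turned from -0.635 to 7.78 percentage points when nuclei with macrophage, mural or erythroid markers were left out, a value that rests on 1 arterial of 5 endothelial nuclei in RVVO 1 (beside shares of 4.37%, 3.73% and 3.66% in the other libraries), and ranged from -1.39 to 0.122 when 1 library was left out, the sign turning without RVVO 2. Against capillary-type nuclei, the same marker setting turned Fbln2 to -0.058, Ltbp4 to -0.47, Sparc to -0.036, Col4a1 to -0.0083 and Cd36 to -0.060, and leaving out macrophage or mural markers turned Rgs5, itself one of those markers, to -0.54. With RVVO, Nos3 (not past the threshold) ranged from -0.69 to 0.17 without 1 library. Notch1, at 0.00, turned to -0.036 without a filter, -0.058 in nuclei of at least 2000 UMIs, -0.19 with the rule after thinning, -0.059 without doublet-scored nuclei, -0.048 with at least 2 arterial genes and -0.012 with the stricter quality filter, and ranged from -0.037 to 0.044 without 1 library.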
